A study of Homo sapiens with 22 samples.

Results

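The genes described here are 10 genes of the epithelial-mesenchymal transition, namely the 7 transcription factors SNAI1, SNAI2, TWIST1, TWIST2, ZEB1, ZEB2 and PRRX1 and the 3 classical cadherins CDH1, CDH2 and CDH3. They were taken by symbol from the gene tables of 3 single-cell RNA-seq experiments, where all 10 were found among 33538 genes in the first and 36601 genes in the later experiments. The study asked how melanoma cells move between a drug-susceptible state and a primed state, in which rare untreated cells already survive later BRAF and MEK inhibition. The levels below ask how these regulators and adhesion genes were distributed over the states, over a second cell line and over treatments given to change the state.

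The samples were 2 established human BRAF-mutant melanoma lines, each grown from a single-cell bottlenecked clone, so that each stands for 1 clone of 1 tumour. In the first experiment, untreated WM989 cells carrying lineage barcodes were sorted as mixed cells or as cells high in EGFR and NGFR, expanded, and loaded in 8 chip wells, with wells 1 to 4 in replicate 1 and wells 5 to 8 in replicate 2. The sources used here do not tie a well to its sort, and the methods split 1 culture over 2 wells, so wells are not 8 independent cultures. In the second experiment, untreated WM983B cells gave 1 library. In the third, barcoded WM989 cells were expanded, split over plates and left untreated (Control), given the ligand TGF-β1 (TGFB1), the TGF-β receptor inhibitor LY2109761 (TGFBRi) or the PI3K inhibitor GDC-0941 (PI3Ki), with 2 libraries each, so that all groups of this experiment carry the barcode vector. The labels call these libraries Mix and Primed where the deposited cell table calls them replicates 1 and 2, and the match was not given. The p-values measure the spread that remains between libraries after treatment and replicate number are fitted. For chromatin, ATAC-seq, which reads open DNA by transposase insertion, was run on untreated WM989 cells in 4 sorts of 3 libraries, labelled Mix, EGFR-High, NGFR-High and EGFR-NGFR-High. The methods describe the sort labelled Mix as negative for both markers, and that difference in wording was not settled.

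Cells numbered 12531 in the first experiment, 1449 in the second and 40021 in the third, and median UMIs per cell, counts of distinct RNA molecules, were 53571 and 66668 in the first and second. All 8 melanocytic markers checked, such as SOX10, MITF and PMEL, stood at 1 CPM or more in every library of the 3 experiments, CPM (counts per 1000000) being a gene's share of the UMIs summed over a group of cells. The keratinocyte markers summed to at most 1.23 CPM in a WM989 well and 2.65 CPM in WM983B, with KRT5 at 0 in all 3 experiments. Sequences of cell barcodes, which mark single cells and not lineages, seen in more than 1 library numbered 19 in the first and 194 in the treatment experiment. The cell states were assigned by the authors from clusters of these same counts, so levels by state or cluster are given as a description with no test. The treatment tests within a state, given below, also use states called from these counts, so their p-values carry that limit.

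Epithelial cells hold on to their neighbours through E-cadherin, the product of CDH1, whose cytoplasmic tail is tied to actin by catenins. In an epithelial-mesenchymal transition, zinc finger factors (SNAI1, SNAI2, ZEB1, ZEB2), basic helix-loop-helix factors (TWIST1, TWIST2) and the homeobox factor PRRX1 shift cells toward a motile, matrix-producing program, often with a switch from E-cadherin to N-cadherin, the product of CDH2. TGF-β is among the best known inducers of that program. Melanocytes arise from the neural crest and use some of the same factors in their normal state: SNAI2 and ZEB2 accompany differentiated melanocytes, whereas ZEB1 and TWIST1 are known from dedifferentiated melanoma. P-cadherin, the product of CDH3, is found in basal epithelium and in some melanocytes.

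The E-box CAGGTG, or CACCTG on the other strand, is the sequence that the SNAI and ZEB zinc finger factors bind. Promoter windows, from 250 bases before to 50 bases after a transcription start, were found in the RefSeq table (GRCh38.p14) for 5 of the 10 genes, namely TWIST2, ZEB1, ZEB2, PRRX1 and CDH2, and 1 window a gene, that at the canonical start, was read. The table held further windows at other starts of ZEB1 and CDH2, which differ in these motifs. The windows of ZEB1, PRRX1 and CDH2 are shown because these 3 genes rose with TGFB1 in the treatment experiment. Letters are in lower case, and capitals mark CAGGTG or CACCTG.
ZEB1 promoter, chr10:31318966-31319265, plus strand: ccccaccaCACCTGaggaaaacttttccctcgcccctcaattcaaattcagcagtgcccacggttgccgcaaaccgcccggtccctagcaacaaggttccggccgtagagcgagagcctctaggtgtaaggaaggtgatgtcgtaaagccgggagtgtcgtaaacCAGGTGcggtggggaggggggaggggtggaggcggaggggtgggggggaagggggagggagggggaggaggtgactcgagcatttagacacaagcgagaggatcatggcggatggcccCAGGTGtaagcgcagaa
PRRX1 promoter, chr1:170663881-170664180, plus strand: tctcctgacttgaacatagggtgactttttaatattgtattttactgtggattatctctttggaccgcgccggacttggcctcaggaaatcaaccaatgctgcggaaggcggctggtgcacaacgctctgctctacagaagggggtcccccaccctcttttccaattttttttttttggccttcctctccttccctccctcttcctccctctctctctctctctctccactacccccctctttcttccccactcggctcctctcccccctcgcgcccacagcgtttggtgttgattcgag
CDH2 promoter, chr18:28177081-28177380, minus strand: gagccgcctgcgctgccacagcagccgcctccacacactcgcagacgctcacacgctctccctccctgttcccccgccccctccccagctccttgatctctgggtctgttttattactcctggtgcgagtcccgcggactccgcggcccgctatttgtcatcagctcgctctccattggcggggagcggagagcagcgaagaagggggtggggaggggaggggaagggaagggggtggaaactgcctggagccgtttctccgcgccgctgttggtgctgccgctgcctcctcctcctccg
The ZEB1 window held 3 such E-boxes, beginning 242 and 85 bases before the start and at base 34 after it. The PRRX1 and CDH2 windows at the canonical starts held none, nor any match to the looser E-box CANNTG that basic helix-loop-helix factors bind, which contains every CAGGTG and CACCTG. Of 35116 promoter windows of this length, 20.6% held CAGGTG or CACCTG and 68.7% held CANNTG on either strand. The ZEB2 window held 1 CANNTG and no CAGGTG or CACCTG, and the TWIST2 window held neither.

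In the GENCODE v44 annotation on hg38, the zinc finger genes are SNAI1 at chr20:49982980-49988886 on the plus strand, SNAI2 on chromosome 8, ZEB1 at chr10:31318495-31529814 on the plus strand and ZEB2 at chr2:144364364-144521057 on the minus strand. TWIST1 lies at chr7:19020991-19117636 on the minus strand, TWIST2 at chr2:238848032-238910534 on the plus strand and PRRX1 at chr1:170662728-170739421 on the plus strand. CDH1 at chr16:68737292-68835537 and CDH3 at chr16:68636189-68727468 are close neighbours on the plus strand, and CDH2 lies at chr18:27932879-28177946 on the minus strand. All are protein coding.

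In untreated WM989 cells, 3 transcription factors stood apart most clearly between the states: PRRX1, ZEB1 and TWIST1 were higher in primed cells than in drug-susceptible cells in every well, with no overlap between the wells of the states. ZEB2 and CDH2 were also higher in primed cells in 8 of 8 wells, but with overlapping ranges, and SNAI1 was lower in 8 of 8. The other 4 genes gave no single direction over wells or lay near the detection limit. Of the 10 genes, 8 reached a mean of 1 CPM, all but TWIST2 and CDH1. Primed cells were 56.9% to 79.7% of the cells in wells 1, 2, 5 and 6 and 6.85% to 9.42% in wells 3, 4, 7 and 8, so a sum over wells takes the states largely from different wells, and ratios are given within wells.

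PRRX1 ranged over the 8 wells from 32.8 to 47.5 CPM in drug-susceptible cells, with a median of 40.9, and from 135 to 177 CPM in primed cells, with a median of 152. The lowest primed well therefore lay far above the highest drug-susceptible well. Within a well, primed cells held 3.24 to 4.77 times as much PRRX1 as drug-susceptible cells, with a median of 3.81.

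ZEB1 was a low gene in drug-susceptible cells, at 3.59 to 6.91 CPM with a median of 4.48 over wells, and stood at 7.35 to 20.3 CPM in primed cells with a median of 13.0. The ranges nearly met but did not overlap, and the ratio within a well ran from 1.52 in well 8 to 5.10 in well 5, with a median of 2.54. Primed cells held 15.4 to 20.3 CPM of ZEB1 in wells 1, 2, 5 and 6 and 7.35 to 10.7 CPM in wells 3, 4, 7 and 8, so that the wells rich in primed cells had the higher level. TWIST1 ranged from 38.6 to 59.3 CPM in drug-susceptible wells, with a median of 49.0, and from 80.0 to 139 CPM in primed wells, with a median of 98.2. Its ratio within a well ran from 1.77 to 2.39, with a median of 2.0. Genes whose primed wells all lay above their drug-susceptible wells were 12.8% of the 12642 genes with a mean of 1 CPM or more, against 3 of the 8 members, and genes whose primed wells all lay below were 12.9%, against 0 of 8.

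ZEB2, which unlike ZEB1 accompanies melanocyte differentiation, ranged from 76.8 to 148 CPM in drug-susceptible wells, with a median of 114, and from 116 to 188 CPM in primed wells, with a median of 151. Each well had more ZEB2 in its primed cells, yet the ranges overlapped, and the ratio within a well was 1.05 to 1.11 in wells 1, 2, 5 and 6 and 1.54 to 1.80 in wells 3, 4, 7 and 8. CDH2, the N-cadherin gene, ranged from 4.32 to 17.2 CPM in drug-susceptible wells, with a median of 10.9, and from 8.88 to 29.1 CPM in primed wells, with a median of 20.4. The overlap of CDH2 came with the replicate: drug-susceptible cells held 5.19 CPM in replicate 1 and 13.7 CPM in replicate 2, and primed cells held 11.3 and 25.9 CPM. The ratio within a well ran from 1.28 to 2.89, with a median of 1.80.

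SNAI1, a founding member of the Snail family of repressors, went the other way. Its drug-susceptible wells ranged from 6.10 to 11.7 CPM, with a median of 7.50, and its primed wells from 2.05 to 6.10 CPM, with a median of 2.42, so that the ranges met at 1 primed well. Within a well, SNAI1 was 1.92 to 3.52 times as high in drug-susceptible as in primed cells, with a median of 2.99, and the ratio of the sums over wells, 3.71, lay above that of every well. Genes higher in primed cells in 8 of 8 wells were 27.9% of all genes with a mean of 1 CPM or more, against 5 of 8 members, and genes lower in 8 of 8 were 30.7%, against 1 of 8.

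SNAI2 had no such direction: its drug-susceptible wells ranged from 61.4 to 179 CPM, with a median of 103, and its primed wells from 74.8 to 123 CPM, with a median of 102. Primed cells were higher in 4 wells and lower in 4. The ratio of primed to drug-susceptible cells within a well ran from 0.668 to 1.48, with a median of 1.04. Drug-susceptible cells summed over wells held 68.2 CPM in replicate 1 and 121 CPM in replicate 2.

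The other cadherins and TWIST2 were close to the floor. CDH1, the E-cadherin gene, had 127 UMIs in 9688 drug-susceptible cells and 9 in 2843 primed cells, or 0.227 and 0.0468 CPM. Of drug-susceptible cells 1.27% held a CDH1 UMI and of primed cells 0.317%, at median depths of 52835 and 58253 UMIs, and no cell type that should lack the gene was present for comparison. CDH3 ranged up to 1.75 CPM in drug-susceptible and 3.07 CPM in primed wells, and was higher in primed cells in 5 wells and lower in 3. TWIST2 had 13 UMIs in drug-susceptible and 80 in primed cells, or 0.0233 and 0.416 CPM, and well 7 had none in either state.

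**Figure D1:**
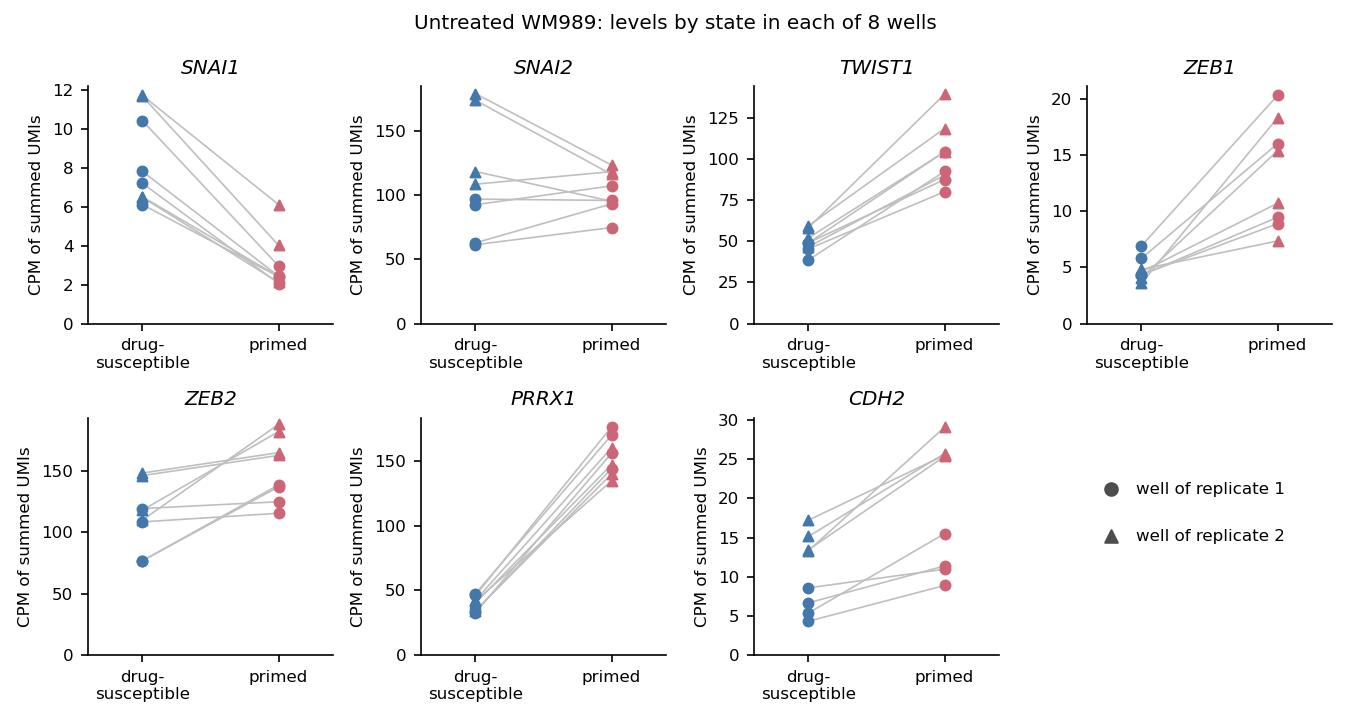
Level of 7 genes in untreated WM989 cells, as CPM of summed UMIs on the vertical axis, for the drug-susceptible and the primed cells of each of 8 wells, which a line joins. Circles are wells of replicate 1 and triangles wells of replicate 2. PRRX1 rises from 32.8 to 47.5 CPM in drug-susceptible cells to 135 to 177 CPM in primed cells in all wells, SNAI1 is lower in the primed cells of all wells, and the lines of SNAI2 run both ways.

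Fibroblast markers stood at 35.2 CPM in sum in drug-susceptible and 84.1 CPM in primed cells of WM989, and leukocyte markers at 44.9 and 95.1 CPM. Most of the latter sum was CD68, a lysosomal gene that many cell types use, with medians of 39.1 CPM in drug-susceptible and 84.1 CPM in primed wells. CSF1R, a macrophage receptor, was also higher in the primed cells of 8 of 8 wells, at 2.31 to 4.91 CPM against 0 to 0.0653 CPM. PTPRC and CD3E did not exceed 0.139 CPM in either state. The remaining leukocyte marker, CD79A, reached 0.288 CPM in drug-susceptible and 0.591 CPM in primed wells, and was higher in primed cells in 5 wells and lower in 3. The fibroblast genes did not share a direction: LUM was lower in primed cells, with medians of 30.4 and 15.6 CPM in drug-susceptible and primed wells, whereas PDGFRA (0.98 and 35.5 CPM), PDGFRB (0.949 and 13.5 CPM) and DCN (1.25 and 7.24 CPM) were higher, each in 8 of 8 wells with no overlap. The part of such genes in the levels of the 10 genes was not tested.

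Over the 11 clusters that the authors deposited for WM989, of which clusters 2, 8 and 9 are primed, PRRX1 was highest in cluster 2, at 177 CPM in replicate 1 and 149 CPM in replicate 2. Clusters 9 and 8 followed, with ranges that overlapped each other and cluster 2. The next was the drug-susceptible cluster 4, at 56.7 and 70.4 CPM, apart from both its neighbours in the order, and then cluster 6, at 43.3 and 49.1 CPM. From cluster 5 down to cluster 3 the remaining drug-susceptible clusters overlapped at 30.9 to 38.5 CPM, and cluster 10, at 32.0 CPM in both replicates, had the lowest mean of the replicates.

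ZEB1 separated the primed clusters from each other. It stood at 20.3 and 18.6 CPM in cluster 9, at 16.4 and 15.5 CPM in cluster 2 and at 8.32 and 7.42 CPM in cluster 8, with no overlap between neighbours, and the highest drug-susceptible cluster, 7, held 6.01 and 5.95 CPM. TWIST1 was highest in clusters 9, 8 and 2, which overlapped, and then in cluster 7, at 69.3 and 85.8 CPM. SNAI1 ran from 15.7 and 16.8 CPM in the drug-susceptible cluster 6 down to 1.59 and 1.69 CPM in the primed cluster 9, with the 3 primed clusters last. For SNAI2, ZEB2 and CDH2 every pair of neighbours in the order overlapped between replicates.

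Across the 11 clusters, Pearson's r of log2(CPM + 1) between SNAI1 and CDH2 was -0.926, between SNAI1 and ZEB1 -0.893 and between SNAI1 and PRRX1 -0.868. PRRX1 had an r of 0.887 with CDH2, 0.886 with ZEB1 and 0.8 with TWIST1, whereas SNAI2 reached at most 0.551, with ZEB1. These values describe 11 points that share wells, sequencing depth and the counts used for clustering. The genes most like each member by this measure, where the other gene reached 20 CPM in at least 1 cluster, were IGFBP7 (r of 0.989), a secreted insulin-like growth factor binding protein, and SPP1 (0.988), which encodes osteopontin, for PRRX1. They were PLXNB2 (0.977), a semaphorin receptor, and FAT1 (0.962), an atypical cadherin, for CDH2, and PAX3 (0.858), a neural crest transcription factor, and WSB1 (0.832) for SNAI2. For ZEB1 they were TNRC18 (0.978) and CHIC2 (0.976), for TWIST1 AC084033.3 (0.959) and RERE (0.955), for ZEB2 ITPRIPL2 (0.924) and HIST1H2AC (0.883), and for SNAI1 REXO4 (0.976) and ZNF593 (0.968).

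WM983B held several of these genes at other levels than WM989. Line and experiment cannot be told apart between these 2 experiments, for which the methods give different reagent kit versions. The methods give the treatment experiment the kit version of WM983B. Its WM989 Control libraries, whose values are given below, held more PRRX1, ZEB1 and SNAI2 and less CDH2 than either state of WM983B. They were still a separate experiment, and the part of the line was not tested. In the single WM983B library, 718 drug-susceptible and 731 primed cells gave 1 value per state. The exact Poisson intervals cover counting error only, so states have no replicate check. CDH2 stood at 50.1 CPM (95% interval 48.3 to 52.1) in drug-susceptible and 86.1 CPM (83.5 to 88.7) in primed cells, a ratio of 1.72. SNAI2 stood at 26.3 CPM (25.0 to 27.7) and 10.4 CPM (9.50 to 11.3), so that drug-susceptible cells held 2.53 times as much. Of 13467 genes with 1 CPM or more in a state, 6.94% were over 1.5 times as high in primed cells and 3% over 1.5 times as high in drug-susceptible cells, and of the 6 members at that level CDH2 alone passed in the first direction and SNAI2 alone in the second.

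PRRX1, so different between the states of WM989, stood at 5.57 CPM (4.95 to 6.23) in drug-susceptible and 8.05 CPM (7.27 to 8.88) in primed WM983B cells, a ratio of 1.45. Both values lay below the lowest WM989 well of either state. TWIST1 gave 107 and 132 CPM, a ratio of 1.24, and ZEB2 gave 99.4 and 108 CPM, a ratio of 1.09. SNAI1 gave 6.08 CPM (5.44 to 6.78) in drug-susceptible and 7.76 CPM (7.0 to 8.58) in primed cells, a ratio of 1.28. Every WM989 well of the first experiment had less SNAI1 in primed cells, while the WM989 Control libraries of the treatment experiment gave no single direction. The difference between the lines was not tested, since WM983B has 1 library.

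The primed clusters of WM983B, 0 and 2, had unlike levels of 3 genes, which the state sums do not show. ZEB2 stood at 114 CPM (111 to 118) in the 640 cells of cluster 0 and at 66.7 CPM (60.5 to 73.3) in the 91 cells of cluster 2, below the drug-susceptible cluster 1 (103 CPM) and with an interval that overlapped that of the drug-susceptible cluster 3 (75.2 CPM, 69.1 to 81.7). CDH2 stood at 90.1 CPM in cluster 0 and 59.7 CPM in cluster 2, where the drug-susceptible clusters 1 and 3 held 48.5 and 60.3 CPM. PRRX1 stood at 6.84 CPM in cluster 0 and 16 CPM in cluster 2, against 5.60 and 5.34 CPM in clusters 1 and 3.

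The remaining 4 genes were rare in WM983B. ZEB1 had 10 UMIs in drug-susceptible and 17 in primed cells, or 0.186 CPM (0.0890 to 0.341) and 0.348 CPM (0.203 to 0.557). CDH1 had 50 UMIs and 1 UMI, or 0.928 CPM (0.688 to 1.22) and 0.0205 CPM (0.000518 to 0.114), and 3.20% of drug-susceptible cells held a CDH1 UMI. CDH3 had 5 and 2 UMIs. No TWIST2 UMI was found in 53907684 UMIs of drug-susceptible and 48830714 UMIs of primed cells. The treatment experiment, on WM989 and with a table of 36601 genes as here, also held none. Primed WM989 cells of the first experiment, with a table of 33538 genes, held 0.416 CPM. The part of the gene table in these zeros was not tested, so they are not read as absence of the RNA.

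**Figure D2:**
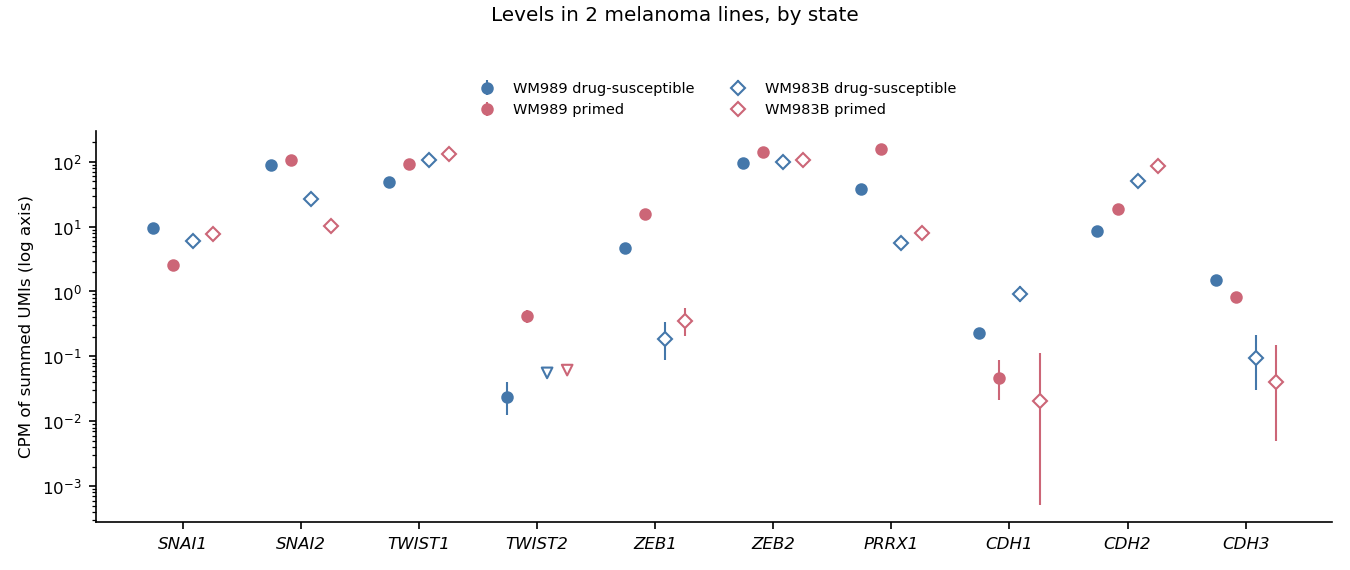
Level of the 10 genes in drug-susceptible and primed cells of WM989 (filled circles) and WM983B (open diamonds), as CPM of UMIs summed over all wells on a log axis, with bars for the exact Poisson 95% interval, hidden where it is narrower than the symbol. Downward triangles mark the limit of 3 counts where no UMI was found. PRRX1 and ZEB1 lie lower in WM983B than in WM989, CDH2 lies higher, and SNAI2 is lower in the primed than in the drug-susceptible cells of WM983B.

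Treatment of WM989 with TGFB1 raised PRRX1, CDH2 and ZEB1 in the sum over all cells of a library. TWIST2 had no UMI in any of the 8 libraries, as in WM983B, whose gene table also held 36601 genes. The E-cadherin gene CDH1 had only 9 to 21 UMIs in each and was called under no treatment over all cells. With single libraries left out, its log2 fold changes ran from 0.67 to 0.94 under PI3Ki, 0.40 to 0.54 under TGFBRi and -0.20 to 0.056 under TGFB1. What change such low counts could show was not tested. In Control libraries, replicate 1 before replicate 2, PRRX1 stood at 41.6 and 39.0 CPM, and in TGFB1 libraries at 111 and 91.3 CPM. CDH2 stood at 10.6 and 11.4 CPM in Control and at 29.3 and 32.2 CPM in TGFB1 libraries. ZEB1 stood at 6.65 and 7.18 CPM in Control and at 9.50 and 10.4 CPM in TGFB1 libraries. For all 3 genes both TGFB1 libraries lay above both Control libraries.

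By edgeR's quasi-likelihood test with replicate as a block and Benjamini-Hochberg adjustment over 18389 genes, CDH2 rose by a log2 fold change of 1.47 (SE 0.0717, adjusted p = 3.91e-13). PRRX1 rose by 1.31 (SE 0.0743, adjusted p = 4.95e-12) and ZEB1 by 0.51 (SE 0.0851, adjusted p = 6.29e-05). CDH3 fell by 0.58 on the log2 scale (SE 0.209, adjusted p = 0.0403), from 0.948 and 0.698 CPM to 0.550 and 0.554 CPM. Of the 9 members tested, 3 rose and 1 fell, against 16.3% of all genes that rose and 12.7% that fell. The call of CDH3 was lost with DESeq2 (adjusted p = 0.247), without the block (0.0897) and without Control replicate 1, TGFB1 replicate 1 or TGFB1 replicate 2, where its log2 fold changes were -0.39, -0.49 and -0.67.

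The other factors did not pass the test. TWIST1 stood at 43.2 and 45.8 CPM in Control and 43.7 and 46.0 CPM with TGFB1, and SNAI2 at 45.5 and 44.5 CPM against 44.6 and 43.5 CPM. ZEB2 stood at 82.4 and 84.2 CPM against 90.1 and 94.6 CPM (log2 fold change 0.13, adjusted p = 0.112), and SNAI1 at 7.80 and 8.31 CPM against 7.24 and 7.95 CPM (-0.10, adjusted p = 0.459). A sum over all cells mixes the share of cells in each state with the level per cell: primed cells were 29.1% and 31.3% of the cells of the TGFB1 libraries and 2.26% and 4.47% of those of the Control libraries. Melanocytic markers fell in the same comparison for 4 of 8 genes and rose for none, and of the 4 fibroblast markers tested 2 rose and none fell. The part of state shares and of these markers in the gene changes was not tested.

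**Figure D3:**
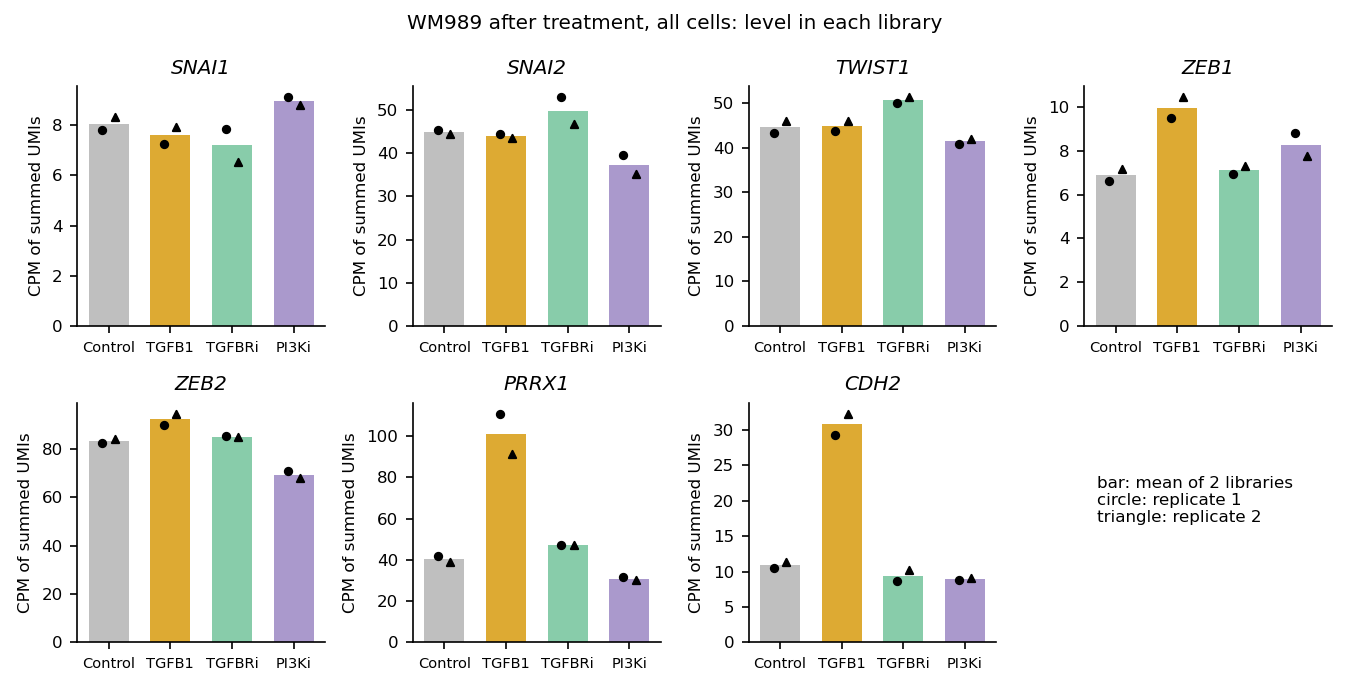
Level of 7 genes in each of the 8 treated WM989 libraries over all cells, as CPM of summed UMIs. Bars are means of 2 libraries, circles replicate 1 and triangles replicate 2. PRRX1 reaches 111 and 91.3 CPM and CDH2 29.3 and 32.2 CPM with TGFB1, above all other libraries, while TWIST1 stays between 40.8 and 51.2 CPM in all 8.

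Within drug-susceptible cells, which the authors' labels define after treatment, PRRX1 rose with TGFB1 by a log2 fold change of 0.71 (adjusted p = 8.93e-07), from 39.9 and 35.2 CPM to 71.2 and 53.3 CPM. CDH2 rose by 0.86 (adjusted p = 1.55e-08), from 10.3 and 10.8 CPM to 19.1 and 19.5 CPM. The drug-susceptible cells sat in different clusters, with 49.4% of those of TGFB1 and 1.52% of those of Control in cluster 3, and 3.04% and 39.2% in cluster 0. ZEB1, at 6.61 and 7.02 CPM in Control and 7.54 and 8.82 CPM with TGFB1, did not pass the test (log2 fold change 0.25, adjusted p = 0.0684) but was called without either TGFBRi library. Of 9 members, 2 rose and 0 fell, against 8.56% and 6.32% of 17914 genes.

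Within primed cells, CDH2 rose with TGFB1 by a log2 fold change of 1.22 (adjusted p = 2.24e-07), from 28.3 and 29.8 CPM to 59.7 and 67.6 CPM. PRRX1 rose by 0.57 (adjusted p = 0.00126), from 144 and 157 CPM to 228 and 197 CPM. TWIST1 fell by 0.71 on the log2 scale (adjusted p = 0.000133), from 116 and 95.0 CPM to 59.8 and 60.8 CPM. SNAI2 fell by 0.49 (adjusted p = 0.0176), from 64.1 and 58.4 CPM to 39.7 and 42.0 CPM, and ZEB2 by 0.38 (adjusted p = 0.0472), from 128 and 153 CPM to 102 and 105 CPM. For each of these 5 genes the libraries of the groups did not overlap. Of the 7 members tested, 2 rose and 3 fell, against 6.21% and 7.09% of 10930 genes. ZEB1 was not called, with log2 fold changes of 0.30 to 0.96 when single libraries were left out.

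The primed comparison rests on few Control cells, 94 and 165, against 1577 and 1757 with TGFB1. It also rests on cells of different clusters, which were called from the same counts. Of the primed TGFB1 cells 98.2% and 97.1% were in cluster 4, and of the primed Control cells 94.7% and 96.4% were in cluster 10. Leaving out any 1 of the 4 libraries compared ended the calls of SNAI2, with log2 fold changes of -0.62 to -0.38, and of ZEB2, at -0.50 to -0.20. PRRX1 lost its call without Control replicate 1 (0.48) or TGFB1 replicate 1 (0.43), and TWIST1 without TGFB1 replicate 1 (-0.56). DESeq2 did not call SNAI2 (adjusted p = 0.180) or ZEB2 (0.202), and without the block ZEB2 was not called (adjusted p = 0.0664). SNAI1 in primed cells was called without Control replicate 1 (1.62) and turned negative without Control replicate 2 (-0.39), on 14 and 8 UMIs in the Control libraries.

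Cluster levels in this experiment put TGFB1 cells apart. Cluster 4, of whose cells 99.5% were from TGFB1 libraries, held the highest PRRX1 (229 and 200 CPM) and the highest CDH2 (59.9 and 67.8 CPM), apart from the next cluster in each case. Cluster 3, a drug-susceptible cluster with 94.9% of its cells from TGFB1 libraries, held 95.0 and 85.1 CPM of PRRX1, below the primed cluster 10 (145 CPM in both replicates) and above all other drug-susceptible clusters. TWIST1 was highest in cluster 10, at 118 and 91.4 CPM. It stood at 59.5 and 60.6 CPM in cluster 4, below the drug-susceptible cluster 7 at 62.6 and 67.6 CPM. Summed over replicates, cluster 4 held 60.1 CPM, and all drug-susceptible clusters other than 7 held less, 30.9 to 49.9 CPM. For ZEB1 clusters 4 and 10 overlapped, at 15.2 and 14.9 CPM and at 15.6 and 12.2 CPM. SNAI1, lower in the primed cells of every well of the first experiment, gave no single direction in Control. It stood at 7.75 and 8.48 CPM in drug-susceptible and at 10.4 and 3.22 CPM in primed cells, the latter on only 14 and 8 UMIs. With TGFBRi it stood at 7.91 and 6.63 CPM in drug-susceptible and at 4.0 and 4.63 CPM in primed cells, on 6 and 14 UMIs. By cluster, SNAI1 was at 6.58 and 5.74 CPM in cluster 10 and at 7.74 and 9.06 CPM in cluster 4, and the first of these overlapped the drug-susceptible clusters 8 (6.48 and 5.63 CPM) and 3 (7.04 and 5.99 CPM).

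PI3Ki moved 2 of the 9 members in the sum over all cells, in opposite directions, against 5.83% of all genes higher and 6.83% lower. The contrast shares its Control libraries with those of TGFB1 and TGFBRi. ZEB1 stood at 8.81 and 7.76 CPM, against 6.65 and 7.18 CPM in Control, and rose by a log2 fold change of 0.35 (SE 0.0857, adjusted p = 0.00754). PRRX1 stood at 31.5 and 30.2 CPM, against 41.6 and 39.0 CPM, and fell by 0.28 on the log2 scale (SE 0.0752, adjusted p = 0.0144). Primed cells were 0.647% and 1.21% of the cells of the PI3Ki libraries, against 2.26% and 4.47% in Control, and the part of that share in the sums was not tested. The libraries of the groups did not overlap for either gene, but neither was called without the replicate block (adjusted p = 0.0562 for ZEB1 and 0.156 for PRRX1). ZEB1 also lost its call without Control replicate 1 (0.31) or PI3Ki replicate 1 (0.24), and PRRX1 without any 1 of the 4 libraries compared, at -0.36 to -0.23.

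With PI3Ki, SNAI2 stood at 39.6 and 35.2 CPM (log2 fold change -0.17, adjusted p = 0.0887), ZEB2 at 70.8 and 68.0 CPM (-0.16, adjusted p = 0.0939), CDH2 at 8.76 and 9.08 CPM (-0.20, adjusted p = 0.0985) and SNAI1 at 9.11 and 8.81 CPM (0.25, adjusted p = 0.0638). In each of these 4 genes both libraries lay on 1 side of both Control libraries, yet none passed the test. All 4 were called when either TGFBRi library was left out. Genes called among all then numbered 3298 of 19044 without TGFBRi replicate 1 and 3292 of 19024 without replicate 2, against 2328 of 18389 with all libraries. The cause of this gain was not tested. In drug-susceptible cells ZEB1 alone was called, with a log2 fold change of 0.36 (adjusted p = 0.00676), of 9 members and against 12.1% of all genes. Of these cells 23.5% with PI3Ki and 2.21% in Control were in cluster 6, and 19.6% and 39.2% in cluster 0. That call was lost without the block and without Control replicate 1 (0.35), Control replicate 2 (0.38) or PI3Ki replicate 1 (0.25). In primed cells, of which the PI3Ki libraries had 25 and 70, edgeR called 0 of 7 members, against 1.78% of all genes. SNAI2 came nearest, at 35.0 and 34.2 CPM against 64.1 and 58.4 CPM in Control (log2 fold change -0.85, adjusted p = 0.0726), and was called without either TGFBRi library.

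TGFBRi changed none of the 9 members past the threshold by edgeR over all cells, against 2.53% of all genes, though 4 had an unadjusted p under 0.05, as did 2395 of the 18389 genes. PRRX1 stood at 47.0 and 47.4 CPM, above both Control libraries (log2 fold change 0.25, adjusted p = 0.0913), and was called without TGFBRi replicate 1 (0.33). TWIST1 also stood above both, at 49.9 and 51.2 CPM (0.20, adjusted p = 0.101). CDH2 stood at 8.63 and 10.2 CPM, below both (-0.21, adjusted p = 0.199), SNAI2 at 52.9 and 46.7 CPM, above both (0.16, adjusted p = 0.245), and DESeq2 also called none of them. In drug-susceptible cells 0 of 9 members were called, against 2.81% of all genes, though PRRX1 was without TGFBRi replicate 1 (0.37) and without either TGFB1 replicate (0.27), and in primed cells 0 of 7, against 0.375%. At an unadjusted p under 0.05 there were 4 members and 2388 of 17914 genes in drug-susceptible cells, and 1 member and 944 of 10930 genes in primed cells. Primed CDH2 under TGFBRi stood at 18.7 and 19.8 CPM, against 28.3 and 29.8 CPM in Control (log2 fold change -0.59, adjusted p = 0.401).

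**Figure D4:**
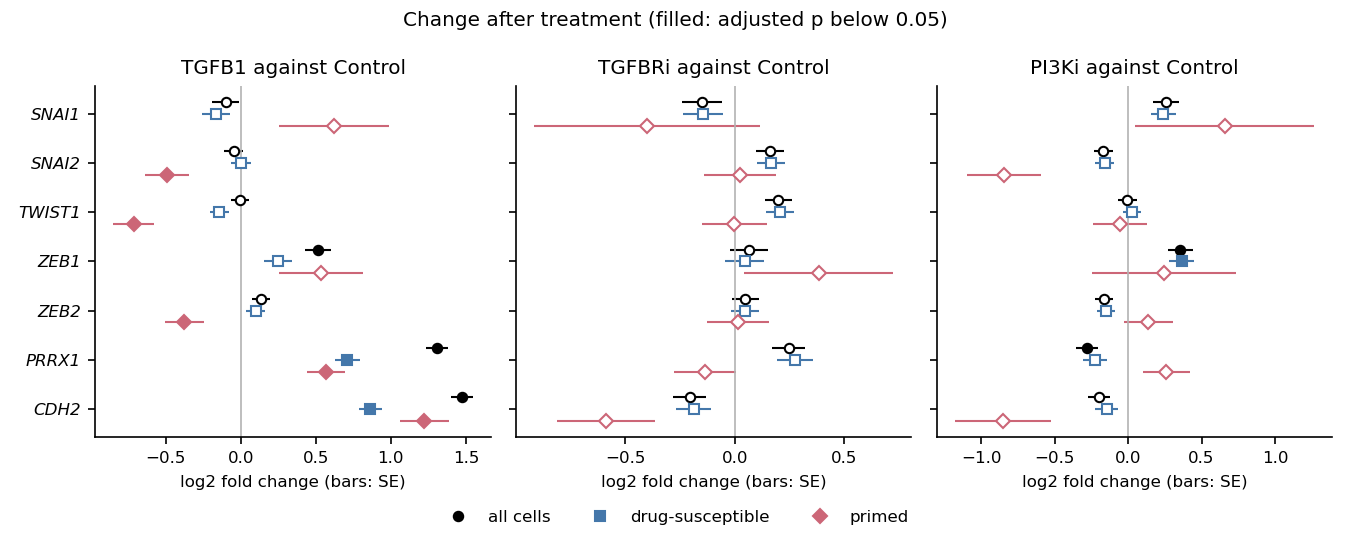
Log2 fold change against Control by edgeR, with bars for 1 standard error, of 7 genes under TGFB1, TGFBRi and PI3Ki, in the sum over all cells (circles), drug-susceptible cells (squares) and primed cells (diamonds). Filled symbols have an adjusted p under 0.05. CDH2 and PRRX1 are filled and to the right in all 3 sums under TGFB1, TWIST1, SNAI2 and ZEB2 are filled and to the left in primed cells under TGFB1, and nothing is filled under TGFBRi.

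The genes that surround these factors in the pathway were read from 5 lists of 85 genes. Under TGFB1, over all cells, 16 of 18 tested genes of the mesenchymal list (matrix, cytoskeleton and adhesion) rose and none fell, with a median log2 fold change of 2.07 against 0.0059 over all genes, of which 16.3% rose and 12.7% fell. TGFBI, a secreted matrix protein, rose by 7.06 (adjusted p = 5.66e-14). Of 13 other regulators tested, 7 rose and 2 fell, led by the forkhead factor FOXC2 (3.63) and the E-protein TCF4 (1.58), with ETS1 (-0.36) among those that fell. Of 4 other cadherins 3 rose, among them CDH13 (1.26), which encodes T-cadherin, and CDH15 (1.2). CDH15 was a low gene, with medians of 0.258 CPM in drug-susceptible and 0.252 CPM in primed wells of the first experiment. The rise of CDH13 did not hold within each state. Within primed cells CDH13 (-1.35) and CDH19 (-2.47) fell with TGFB1, and within drug-susceptible cells both rose (0.85 and 1.15).

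Genes of the epithelial list did not move together under TGFB1: of 8 tested, 4 rose and 1 fell, where 16.3% of all genes rose and 12.7% fell. Those that rose most were KRT7 (4.55), a keratin of simple epithelia, and CLDN4 (3.15), a tight junction protein, while ESRP1, an epithelial splicing regulator, fell by 0.72 on the log2 scale. Of 7 catenins and their partners, 2 rose, JUP (2.41), which encodes plakoglobin, and VCL (0.37), which encodes vinculin, and none fell. KRT7, CLDN4 and JUP were low genes, with medians of 0.0403, 0.015 and 0.229 CPM in drug-susceptible wells of the first experiment. How far low counts bear on the size of their changes was not tested. Within drug-susceptible cells 14 of 18 mesenchymal genes rose with TGFB1 and 1, VIM (-0.28), fell, 1 of 6 epithelial genes rose and 1 fell, 4 of 13 other regulators rose and 1 fell, 2 of 4 other cadherins rose, and no catenin of 5 was called, where 8.56% of all genes rose and 6.32% fell. Within primed cells 10 of 17 mesenchymal genes rose and 2 fell, 3 of 5 epithelial genes rose and 1 fell, 6 of 12 other regulators rose, 2 of 3 other cadherins fell and no catenin of 5 was called, where 6.21% of all genes rose and 7.09% fell.

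Under PI3Ki, over all cells, 11 of 18 mesenchymal genes fell and none rose, with a median log2 fold change of -0.63 against 0.0026 over all genes, of which 5.83% rose and 6.83% fell, led by the collagens COL5A1 (-2.58) and COL1A2 (-2.54). Among other regulators 3 rose and 2 fell, with ID3 (1.76) and ID1 (1.66), inhibitors that pair with basic helix-loop-helix factors, at the top and FOXC2 (-1.70) and TCF4 (-0.42) at the bottom. Of 8 epithelial genes 2 rose, KRT8 (0.41) and KRT18 (0.25), of 7 catenins 1 fell, VCL (-0.26), and of 4 other cadherins CDH24 rose (0.43) and CDH13 fell (-1.18). Within drug-susceptible cells 7 of 18 mesenchymal genes fell under PI3Ki and 1, ACTA2 (0.91), rose, with a median log2 fold change of -0.34. There 12.1% of all genes were called. Within primed cells 3 of 17 fell and none rose, where 1.78% of all genes were called. Under TGFBRi, over all cells, 2 mesenchymal genes of 18 fell, where 2.53% of all genes were called. They were FN1 (-0.59), which encodes fibronectin, and MMP14 (-0.36). Of the other regulators ID3 (-2.97), ID1 (-2.14) and ID2 (-0.88) fell and FOXC1 rose (0.47), of the epithelial genes ESRP1 rose (0.32) and KRT18 fell (-0.26), and no catenin or other cadherin was called.

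At the level of chromatin, no member's start passed the test between sorts, and ZEB1 and ZEB2 came nearest, with opposite signs. Within 500 bases of the start, 7 of the 10 genes had an ATAC-seq peak in all 12 libraries. TWIST2 and CDH1 had none in any of the 12, and CDH3 had one in 9, at fold enrichments of 3.57 to 5.81 over the local background. CDH3 had it in 3 of 3 Mix, 3 of 3 NGFR-High, 2 of 3 EGFR-NGFR-High and 1 of 3 EGFR-High libraries.

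Values follow the replicate order of the labels. The ZEB1 start had fold enrichments of 11.6, 10.8 and 11.6 in Mix, 12, 15.1 and 9.79 in EGFR-High, 9.15, 10.1 and 8.93 in NGFR-High and 9.82, 9.92 and 5.95 in EGFR-NGFR-High libraries. All NGFR-High and EGFR-NGFR-High libraries lay below all Mix libraries. The ZEB2 start had 23.7, 21.2 and 23.7 in Mix, 26.9, 26.5 and 22 in EGFR-High, 32.2, 30.2 and 24.4 in NGFR-High and 44.3, 29.3 and 28.8 in EGFR-NGFR-High libraries. The NGFR-High and EGFR-NGFR-High libraries of ZEB2 lay above all Mix libraries, the opposite order to ZEB1.

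Neither passed the test. By limma on log2 fold enrichment, centred in each library and adjusted over 18403 genes with a start peak in all libraries, ZEB2 differed between EGFR-NGFR-High and Mix by 0.48 (SE 0.127, adjusted p = 0.102) and ZEB1 by -0.52 (SE 0.156, adjusted p = 0.149). Of the 7 members, 0 were called between any marker-high sort and Mix, and at an unadjusted p under 0.05 there was 1 in EGFR-High (SNAI2), 2 in NGFR-High (TWIST1 and ZEB1) and 2 in EGFR-NGFR-High (ZEB1 and ZEB2). Of the 18403 genes, 2383, 2447 and 2375 were under 0.05 in the same order. The genes called were 0.418% of all in EGFR-High, 1.28% in NGFR-High and 1.46% in EGFR-NGFR-High. With the replicate number as a block, which the data did not show to pair libraries, ZEB2 in EGFR-NGFR-High was called.

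PRRX1, whose RNA separated the states of WM989, had start enrichments of 25.1, 19.8 and 22.3 in Mix and 25.0, 24.6 and 22.8 in EGFR-NGFR-High libraries. The difference on the log2 scale was 0.04 (SE 0.123, adjusted p = 0.934), and the libraries overlapped. In NGFR-High PRRX1 had 29.4, 32.4 and 27.7, above all Mix libraries, and differed by 0.27 (SE 0.123, adjusted p = 0.377). TWIST1 had 29.1, 26.9 and 42.1 in Mix and 44, 40.2 and 32.8 in EGFR-NGFR-High libraries, which overlapped, and 43.7, 48.1 and 44.7 in NGFR-High libraries, which lay above all Mix libraries (0.35, SE 0.140, adjusted p = 0.293). CDH2 overlapped, with 21.1, 18.9 and 26.1 in Mix against 25.9, 22.7 and 22.8 in EGFR-NGFR-High libraries. SNAI2 had the highest enrichment, 82.5 to 89.5 in Mix and 90.6 to 114 in the marker-high sorts, with no overlap before centring, and SNAI1 had 35.3 to 47.0 in Mix and 32.0 to 49.2 in the others.

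**Figure D5:**
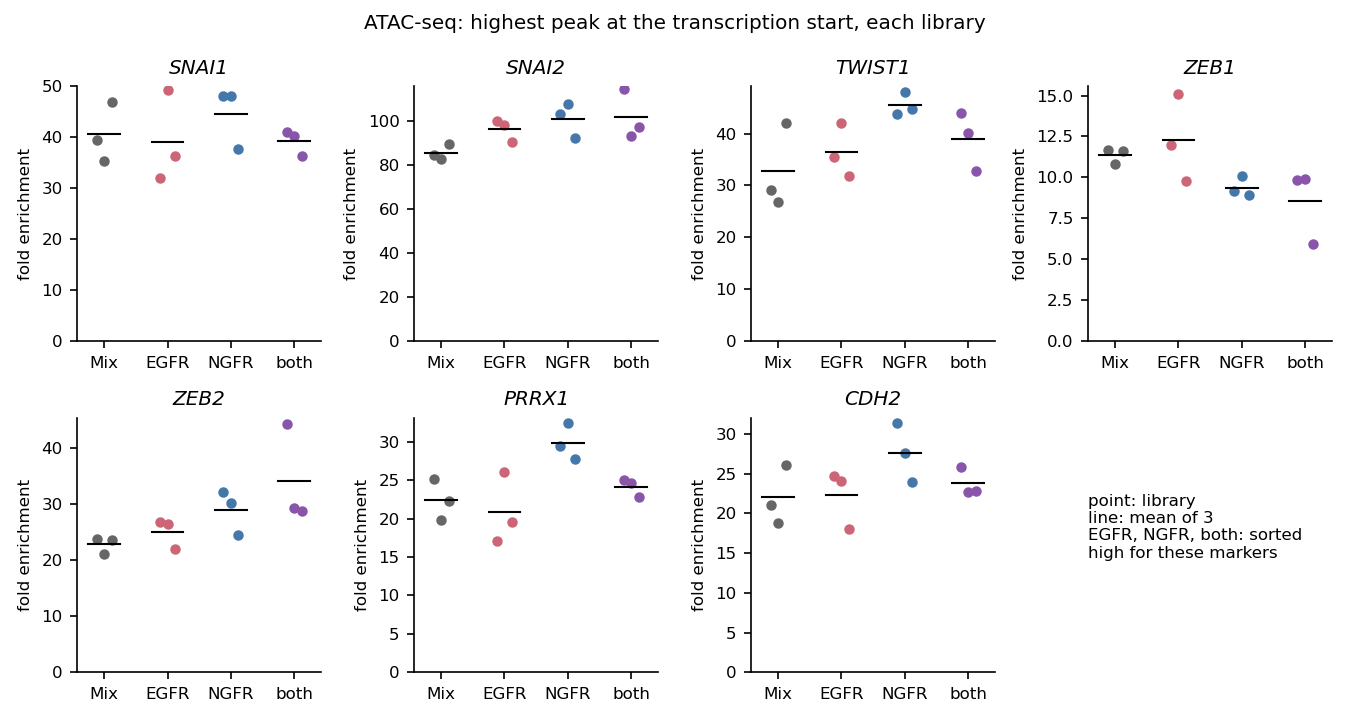
Fold enrichment of the highest ATAC-seq peak within 500 bases of the transcription start of 7 genes, for each of 3 libraries in the sorts Mix, EGFR-High, NGFR-High and EGFR-NGFR-High (both). Points are libraries and lines are means, before centring. ZEB1 is lower and ZEB2 higher in NGFR-High and EGFR-NGFR-High than in Mix libraries, while PRRX1 in EGFR-NGFR-High lies within the spread of Mix.

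Within 10000 bases of the genes, 5 to 18 open regions per gene were found over all libraries. Of 152014 regions in the genome, 0.857% had a peak in all 9 marker-high libraries and in none of the 3 Mix libraries. Of the 110 regions near the members, 2 had this pattern. The opposite pattern was found in 0 of the 110, against 0.193% in the genome. The first lies in an intron of CDH3, at chr16:68658488-68659015, 13441 bases downstream of the transcription start, with fold enrichments of 5.12, 3.31 and 4.89 in EGFR-High, 9.15, 8.75 and 5.17 in NGFR-High and 12.5, 6.62 and 5.46 in EGFR-NGFR-High libraries. The second lies at chr2:144358947-144359369, beyond the 3′ end of ZEB2, with a median fold enrichment of 4.70 over the 9 libraries.

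The central 300 bases of these regions are shown because they are the only places near the 10 genes where all marker-high libraries had a peak and no Mix library did, or the reverse. Capitals mark TGANTCA, the motif that AP-1 factors bind, and both are read on the plus strand of hg38.
CDH3 intronic region, chr16:68658602-68658901: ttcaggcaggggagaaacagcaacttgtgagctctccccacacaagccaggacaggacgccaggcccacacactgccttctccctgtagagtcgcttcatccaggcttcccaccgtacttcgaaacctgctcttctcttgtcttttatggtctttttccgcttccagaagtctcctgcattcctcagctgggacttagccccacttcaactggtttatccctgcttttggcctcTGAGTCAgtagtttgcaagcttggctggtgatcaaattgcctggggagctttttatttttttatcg
ZEB2 distal region, chr2:144359009-144359308: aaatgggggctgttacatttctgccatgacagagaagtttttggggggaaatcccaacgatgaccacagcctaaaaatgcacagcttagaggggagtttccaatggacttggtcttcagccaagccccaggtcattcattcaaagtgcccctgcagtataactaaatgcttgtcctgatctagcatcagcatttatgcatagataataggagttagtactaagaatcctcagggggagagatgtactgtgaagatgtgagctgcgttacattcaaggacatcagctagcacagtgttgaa
The CDH3 stretch held 1 match, beginning at base 235, and the ZEB2 stretch held none. Of the central 300 bases of 152013 open regions that could be read at this length, 20.2% held TGANTCA on either strand. CDH3 RNA had no single direction in WM989: in sums over wells it stood at 1.49 CPM in drug-susceptible and 0.833 CPM in primed cells, but as means over the 8 wells at 1.1 ± 0.62 and 1.36 ± 1.02 CPM (SD).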

How the data were processed

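Single-cell UMI counts per gene, which the authors deposited after Cell Ranger alignment to hg38 and filtering, clustering and state calls in Seurat, were summed over the cells of each group, library, well or cluster and divided by the group's total to give CPM. No doublet caller was run here, and the authors' labels were used as deposited. Exact Poisson 95% intervals cover counting error only. Treatments were tested on library sums with edgeR 4.0.16 in R 4.3.3 (quasi-likelihood test, TMM scaling, filterByExpr, treatment with replicate as a block, Benjamini-Hochberg threshold 0.05), with DESeq2 1.42.0 as an alternative. Same-numbered libraries deviated together over all cells, with correlations of 0.256 to 0.365, but little in primed cells, at 0.025 to 0.146. The block was used because the methods split the cells of a culture over the treatment plates, although what the replicate numbers stand for was not given. The self-test on simulated counts was run before the fits.

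For ATAC-seq, the authors deposited MACS2 (2.1.1.20160309) peaks per library after Bowtie2 2.3.4.1 alignment, with fold enrichment as a ratio over local background and q-values as −log10 q. The highest fold enrichment within 500 bases of the GENCODE v44 start was taken as log2, centred on each library's median and tested with limma 3.58.1. A peak file lists only values that passed the caller, so a missing peak is not a value of 0. Peak entries numbered 213412 to 271153 per library, over 148575 to 180941 distinct intervals, and the read depth behind a ratio is not known. The deposited q-values served only to rank peaks in an alternative.

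UMI totals were 750662838 in untreated WM989, 102738398 in WM983B and 70239657 to 122420544 per treated library, and no column of another sample was used. The 10 genes and the gene lists were chosen with earlier results of these data known. The text gives each of the 10 genes, the 2 nearest genes by Pearson's r for members with at least 10 CPM in a cluster, and the called genes of each list with the largest change, of which some are not reported here. Alternatives were another scaling, no filter, no block, DESeq2, each library left out in turn, G1 cells alone and other peak windows. Leaving out libraries in primed cells was added after seeing the data.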

Additional observations from a re-analysis of the deposited data

Results flagged for a closer look

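CDH1 in the primed cells of WM989 well 7 stood at 0.335 CPM, from 3 UMIs, apart from the other 7 wells by Dixon's criterion. This was 1 of 20 such tests over genes and states, and chance gives about 1 in 20.

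SNAI1 had a ratio of primed to drug-susceptible CPM of 1.28 in the single WM983B library, where all 8 WM989 wells were lower in primed cells. The WM989 Control libraries of the treatment experiment gave no single direction, on few primed UMIs. The difference between the lines was not tested.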

How the results depend on the processing

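Under TGFB1, the calls of PRRX1, CDH2 and ZEB1 over all cells, of PRRX1 and CDH2 in drug-susceptible cells and of CDH2 in primed cells held with DESeq2, without the replicate block and without any single library. Another scaling, run over all and drug-susceptible cells only, also kept them. Without the block, genes called were 649 for PI3Ki and 40 for TGFBRi over all cells, 570, 1189 and 47 for PI3Ki, TGFB1 and TGFBRi in drug-susceptible cells, and 87 for PI3Ki and 9 for TGFBRi in primed cells, and PI3Ki called 0 members over all cells and 0 in drug-susceptible cells. DESeq2 called 326 genes for TGFBRi in drug-susceptible cells, 16 for TGFBRi and 693 for TGFB1 in primed cells, with 3 members for the last. Without the filter on low counts, TGFBRi called 748 of 29571 genes and 1 member (PRRX1) over all cells. In drug-susceptible cells TGFBRi then called 727 of 29027 genes and 1 member (PRRX1). PI3Ki called 2391 of 29027 genes and 2 members (ZEB1 and PRRX1) there. In G1 cells alone TGFBRi called 148 genes, and TWIST1 under PI3Ki (0.0809) and SNAI1 under TGFBRi (0.0785) turned positive. The causes of these shifts were not tested.

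Leaving out single libraries gave, over all cells, 719 to 3298 genes and 0 to 6 members for PI3Ki, 3164 to 6377 and 3 to 5 for TGFB1, and 168 to 1146 and 0 to 1 for TGFBRi. In drug-susceptible cells it gave 632 to 3286 genes and 0 to 5 members for PI3Ki, 988 to 3722 and 2 to 3 for TGFB1, and 206 to 1247 and 0 to 1 for TGFBRi. In primed cells it gave 96 to 239 genes and 0 to 1 members for PI3Ki, 584 to 1726 and 1 to 5 for TGFB1, and 17 to 63 and 0 for TGFBRi. Of 75 log2 fold changes of single members, 18 changed sign between left-out libraries, within these ranges. Over all cells they were TWIST1 (-0.0376 to 0.0102) and CDH3 (-0.0013 to 0.37) under PI3Ki, TWIST1 (-0.0223 to 0.0112) and CDH1 (-0.20 to 0.0559) under TGFB1, and SNAI1 (-0.30 to 0.0011) and CDH3 (-0.36 to 0.0116) under TGFBRi. In drug-susceptible cells they were CDH3 under PI3Ki (-0.0256 to 0.39) and TGFBRi (-0.40 to 0.0115) and SNAI2 under TGFB1 (-0.0414 to 0.0445). In primed cells they were SNAI1 under PI3Ki (-0.83 to 1.58), TGFB1 (-0.39 to 1.62) and TGFBRi (-1.44 to 0.57), TWIST1 (-0.15 to 0.0664), ZEB1 (-0.82 to 1.54) and ZEB2 (-0.00031 to 0.31) under PI3Ki, and SNAI2 (-0.0913 to 0.18), TWIST1 (-0.0814 to 0.092) and ZEB2 (-0.11 to 0.19) under TGFBRi.

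For ATAC-seq starts, a window of 1000 bases gave 119, 369 and 410 genes in EGFR-High, NGFR-High and EGFR-NGFR-High. Any annotated start gave 116 in EGFR-High and 439 in EGFR-NGFR-High, and the 50000 highest-ranked peaks gave 68 in NGFR-High and 95 in EGFR-NGFR-High. Leaving out replicates gave 11 to 32, 19 to 181 and 32 to 128, with sign changes in 6 of 21 member values: SNAI1 (-0.19 to 0.11), PRRX1 (-0.22 to 0.13) and CDH2 (-0.0640 to 0.32) in EGFR-High, SNAI1 (-0.12 to 0.15) in NGFR-High, where no centring gave 0.14, and PRRX1 (-0.0526 to 0.19) and CDH2 (-0.0166 to 0.12) in EGFR-NGFR-High. The replicate block gave 82, 250 and 308 genes, with pairing correlations of -0.033 to 0.12.

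The log2 ratio of primed to drug-susceptible SNAI2 was -0.0553 in replicate 2 wells and -0.12 as an equal-weight mean over wells, and that of CDH3 was 0.30 as such a mean. After thinning to equal depth, the share of cells with TWIST1 was 1.12 percentage points higher in primed WM983B cells and 0.305 points higher with TGFB1, and with ZEB2 2.74 points higher with TGFB1, each negative before thinning.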

Other observations

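SNAI2 in drug-susceptible WM989 cells varied with the well. It stood at 92.5, 96.9, 62.8 and 61.4 CPM in wells 1 to 4 and at 179, 174, 118 and 109 CPM in wells 5 to 8. In each replicate the higher values were those of the wells rich in primed cells, whose primed shares were 56.9% and 62.4% in wells 1 and 2 and 79.7% and 76.9% in wells 5 and 6, against 6.85% to 9.42% in the other wells.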
